A study of Mus musculus with 28 samples.

Results

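Genes for ion channels and ion pumps were taken from the normalized expression table by their symbols, and 79 of the 13128 named genes were members. The rule kept symbols of potassium channels (Kcn), sodium channels (Scn, Scnn), chloride channels and exchangers (Clcn, Clic), voltage-gated calcium channels (Cacn), TRP channels with polycystin-2 (Trp, Pkd2), anoctamins (Ano), the sodium pump (Atp1a, Atp1b) and the calcium pumps (Atp2a, Atp2b, Atp2c). It used no measured value. Trpc4ap also met it, although it encodes a protein bound to a TRP channel and not a channel. All 79 members passed the filter on low values, since the filter removed 0 genes.

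The libraries came from DC2 cells, an immortalized epithelial line of the mouse epididymis (distal caput), the duct in which sperm mature. Confluent cultures on collagen were given either corticosterone (500 ng/ml, dissolved in ethanol), which is the chief glucocorticoid hormone in mice, or 0.1% ethanol as the vehicle, for 3 days. Medium was replaced at day 3 and day 6, so that days 6 and 9 lay 3 and 6 days after the end of the treatment. There were 7 groups of 4 libraries: cells before treatment at day 0, vehicle at days 3, 6 and 9, and corticosterone at days 3, 6 and 9. DC2 is 1 cell line, and the labels do not say whether libraries of a group came from separate cultures, so that p-values measure only the spread between these libraries.

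An epithelium moves salt and water by pairing pumps with channels. The sodium pump holds sodium low inside the cell, the epithelial sodium channel lets sodium in from the lumen, potassium channels return potassium and set the membrane voltage, and chloride channels carry the anion that follows. Calcium pumps, voltage-gated calcium channels and TRP channels set calcium signals. In the epididymis these proteins shape the luminal fluid in which sperm mature, and in kidney and colon glucocorticoids and mineralocorticoids are known to raise sodium channel and sodium pump genes, in part through the kinase SGK1.

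The glucocorticoid receptor binds DNA as a pair of half-sites with the letters TGTTCT, or AGAACA on the other strand. RefSeq promoter windows of GRCm38.p6, each with 250 bases before and 50 bases after a transcription start, were found for 58 of the 79 members, 89 windows in all. Below stand the windows of the 2 member genes that were most raised at day 9, Kcnj15 and Kcnk1, and of 2 genes raised at day 3, Trpv2 and Cacna1d, whose windows held a half-site. Half-sites are in capitals, the strand is that of the gene, and the sequences run 5′ to 3′.
Kcnj15, chr16:95257308-95257607, plus strand: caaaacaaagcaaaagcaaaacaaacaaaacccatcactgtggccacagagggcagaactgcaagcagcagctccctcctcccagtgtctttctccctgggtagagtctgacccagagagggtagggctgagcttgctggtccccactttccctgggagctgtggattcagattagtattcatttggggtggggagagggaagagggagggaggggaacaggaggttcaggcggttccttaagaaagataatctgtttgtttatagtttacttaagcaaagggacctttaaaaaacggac
Kcnk1, chr8:125994852-125995151, plus strand: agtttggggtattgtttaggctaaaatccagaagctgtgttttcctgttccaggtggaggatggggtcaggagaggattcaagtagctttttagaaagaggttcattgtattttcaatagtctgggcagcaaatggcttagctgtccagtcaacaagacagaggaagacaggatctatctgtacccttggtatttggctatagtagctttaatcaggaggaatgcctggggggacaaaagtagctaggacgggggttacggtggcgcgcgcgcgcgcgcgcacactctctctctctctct
Trpv2, chr11:62575377-62575676, plus strand: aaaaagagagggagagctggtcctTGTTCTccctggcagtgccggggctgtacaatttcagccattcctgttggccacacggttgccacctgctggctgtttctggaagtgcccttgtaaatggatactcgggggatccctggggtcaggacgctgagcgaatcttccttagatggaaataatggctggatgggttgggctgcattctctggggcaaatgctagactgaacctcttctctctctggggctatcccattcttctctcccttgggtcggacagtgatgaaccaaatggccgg
Cacna1d, chr14:30491107-30491406, minus strand: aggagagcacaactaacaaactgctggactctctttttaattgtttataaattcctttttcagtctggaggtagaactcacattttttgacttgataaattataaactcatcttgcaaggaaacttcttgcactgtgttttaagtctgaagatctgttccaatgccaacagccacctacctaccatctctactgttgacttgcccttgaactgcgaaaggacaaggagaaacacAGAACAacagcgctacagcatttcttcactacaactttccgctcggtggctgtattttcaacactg
Counted from the start, the half-site of Trpv2 began at -226 in 1 of its 3 windows, and that of Cacna1d at -16 in 1 of its 2 windows. The only windows listed for Kcnj15 and Kcnk1 held none. A half-site on either strand was found in 10 of the 89 member windows (11.2%) and in 19.0% of all 32851 windows. By gene it was found for 2 of 18 members that were higher with corticosterone at day 3, for 3 of 12 that were lower and for 5 of 28 that were not called, against 21.3% of all genes with a window. The palindrome of AGAACA, NNN (any 3 bases) and TGTTCT, which contains the half-site on both strands, was found in 0 member windows and in 3 of all windows (0.00913%). These letters describe the windows and do not mark a site that is used.

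Values are log2 CPM, the log2 of a gene's reads scaled to a common library total, and a difference is a log2 difference ± SE from limma's moderated test with Benjamini-Hochberg adjustment over all 13128 genes. A gene was called at adjusted p under 0.05, and only called genes are said to have risen or fallen. Transcripts of the members made up 0.457 to 0.713% of all CPM. Over the 28 libraries the mean was above 5 for 26 members, from 0 to 5 for 34 and below 0 for 19. The lowest value in the table, -4.15, occurred in every library, and Kcnj15, Kcnk1, Kcnk4, Kcnh1, Scn4a and Trpc2 reached it in at least 1 vehicle library of day 0. Differences of such low values depend on the offset used before taking logs, which is not given in the sources used here. In bulk RNA, fewer cells with a transcript and less of it per cell cannot be told apart.

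The library of corticosterone day 3 replicate 4 stood apart from the other 3 of its group. Its root mean square distance from the group mean was 0.390 over all genes, against 0.187 to 0.275 in the other 27 libraries. Without it, 43 members in place of 44 were called at day 3, 28 higher and 15 lower, and 6581 of all genes in place of 6429. Atp2a2, Cacna1g, Kcnd1, Kcnh3 and Kcnk2 were then no longer called, with differences of -0.08, -0.42, 0.30, -0.43 and -0.57. Ano1, Cacna2d1, Clic1 and Clic3 were then called, at 0.34, 0.19, -0.26 and 0.87. Clic3, Scn4a and Trpc2 are named after their values were seen.

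At the end of the treatment on day 3, corticosterone changed 44 of the 79 members, 26 higher and 18 lower (55.7%). Over all genes tested 49.0% were called, 23.3% higher and 25.6% lower. The median difference was 0.09 over the members and -0.01 over all genes. Changes of at least 2-fold were called for 11 members that rose and 5 that fell, 13.9% and 6.33%, against 3.64% and 3.26% of all genes. The largest rises were those of potassium channels, Kcnj15, Kcnd3, Kcnn2 and Kcnk1, together with the cation channel Trpv2, and the largest fall was that of the calcium channel Cacna1i.

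Days 6 and 9 followed 3 and 6 days without hormone. At day 6, 44 members were called, 28 higher and 16 lower, against 47.2% of all genes, 22.9% higher and 24.3% lower. At day 9, 29 members were called, 16 higher and 13 lower (36.7%), against 28.5% of all genes, 14.1% higher and 14.4% lower. Only Kcnj15 and Kcnk1 of the members were still raised at least 2-fold, 2.53% against 0.937% of all genes. Of these 2 days, 16 members (20.3%) were called at both, 28 (35.4%) at day 3 alone, 13 (16.5%) at day 9 alone and 22 (27.8%) at neither. The shares of all genes were 17.6%, 31.4%, 10.9% and 40.1%. Over the 3 days 20 members (25.3%, against 32.2% of all genes) were never called, among them Clic1, Atp2b4, Trpm7 and Atp1b2. The map of differences shows these calls by class.

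**Figure D1:**
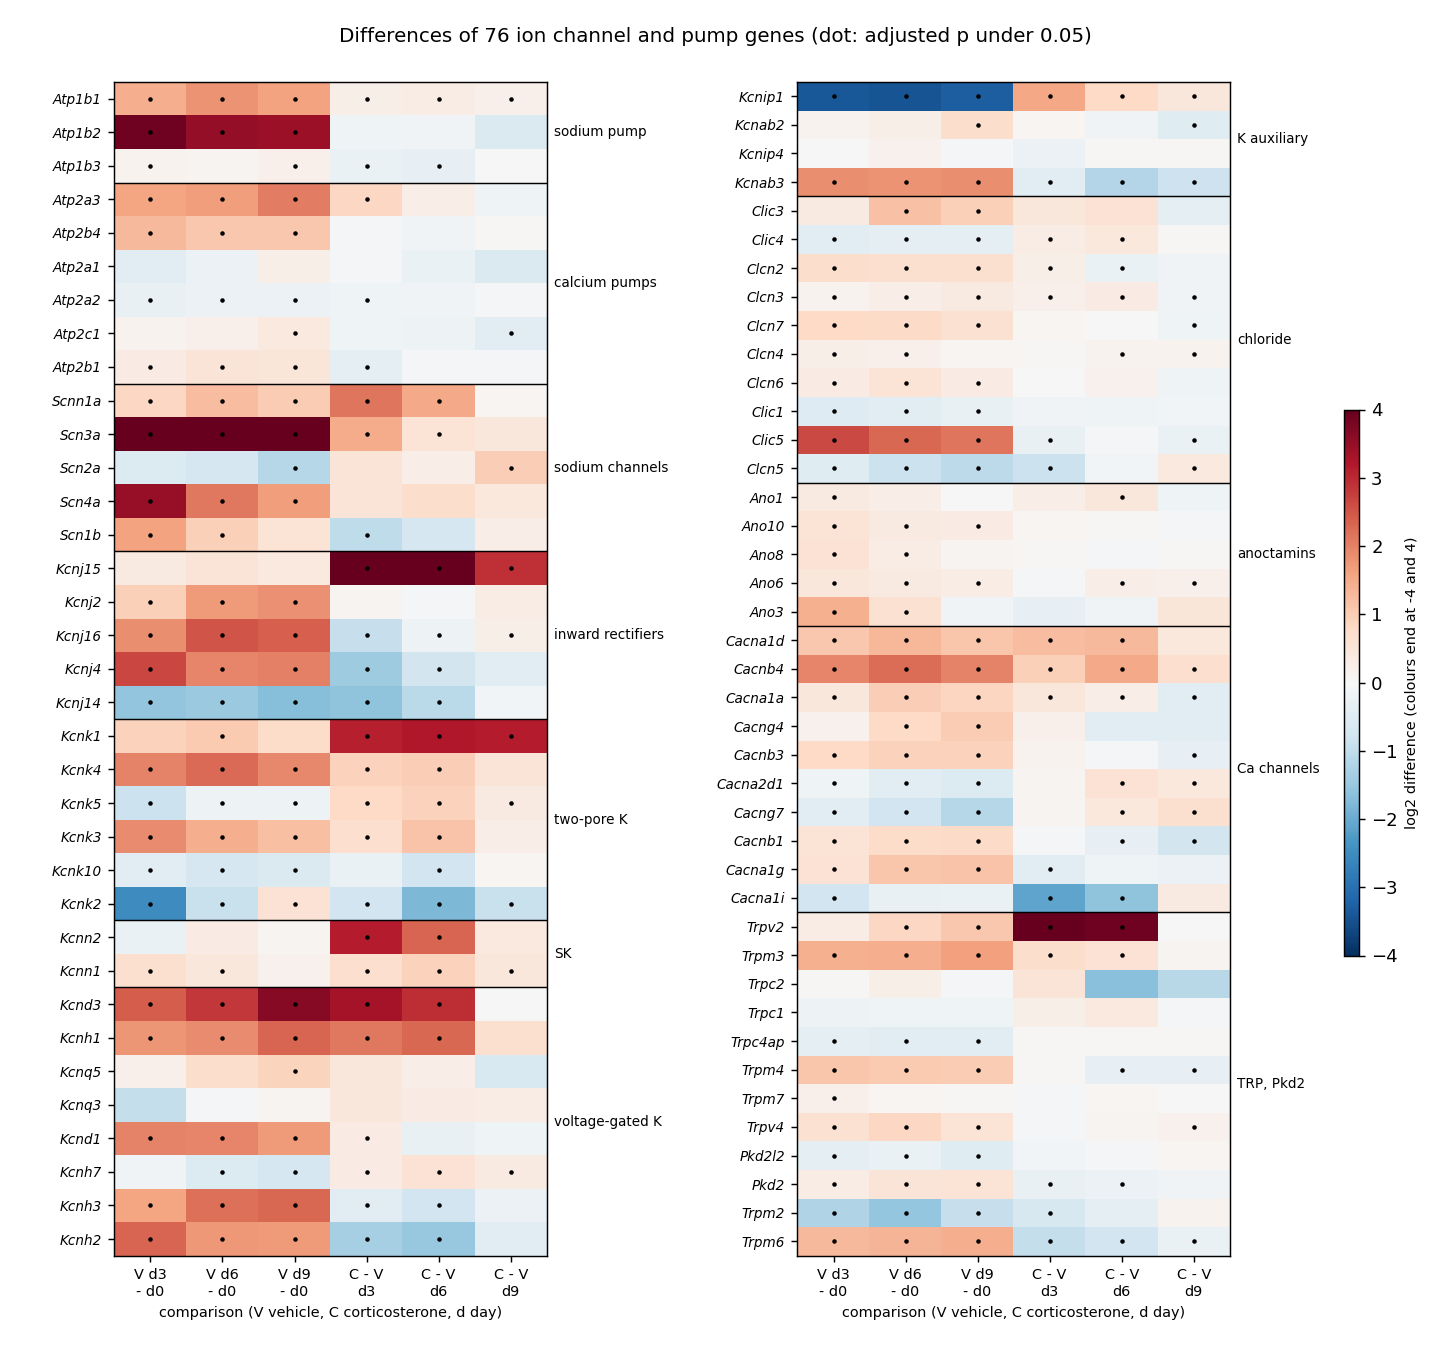
Log2 differences of 76 members (rows, grouped by class) in 6 comparisons (columns: vehicle at day 3, 6 or 9 minus day 0, and corticosterone minus vehicle at day 3, 6 or 9). Red is higher and blue lower, colours end at -4 and 4, and a dot marks an adjusted p under 0.05. The darkest red cells of the hormone columns are those of Kcnj15 and Trpv2, and fewer dots stand in the day 9 hormone column (28) than in the day 3 column (42).

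The sodium pump exchanges sodium for potassium across the basolateral membrane and is built of an alpha and a beta subunit. The beta subunits, which carry the pump to the membrane, did not move together. Atp1b1 stood at 9.72, 9.75, 9.84 and 9.86 in vehicle at day 3 and at 9.77, 10.00, 10.12 and 10.21 with corticosterone. These groups overlapped, and the rise was 0.23 ± 0.08 (adjusted p = 0.0194), not called under quantile normalization (0.04) or when vehicle replicate 5 or corticosterone replicate 1 or 6 was left out. Its rise at day 6 was 0.30 ± 0.08 (adjusted p = 0.00306), with no overlap. Atp1b3, another beta subunit, fell at day 3 by 0.26 ± 0.06 (adjusted p = 0.00101) and had at day 6 a difference of -0.34 ± 0.06 (adjusted p = 7.15e-05). In that comparison its 4 vehicle libraries lay from 6.99 to 7.04 and its treated libraries from 6.67 to 6.71. Atp1b2, a beta subunit best known from glia, differed by -0.16 at day 3 and was not called at any day.

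Per kilobase of transcript, the calcium pump Atp2a2 stood at 181 CPM per kb in untreated cells at day 0, Clic1 at 175 and Atp1b1 at 126. With corticosterone at day 3, Atp1b1 stood at 406 CPM per kb, Atp2a2 at 132 and Clic1 at 115. These groups differ in time as well as in treatment. In log2 CPM, Atp1b1 lay at 8.28 to 8.42 at day 0 and already at 9.72 to 9.86 in vehicle at day 3. With corticosterone at day 3 it lay at 9.77 to 10.21. Lengths were those of the longest coding transcript, and the isoform used by the cells was not measured here.

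**Figure D2:**
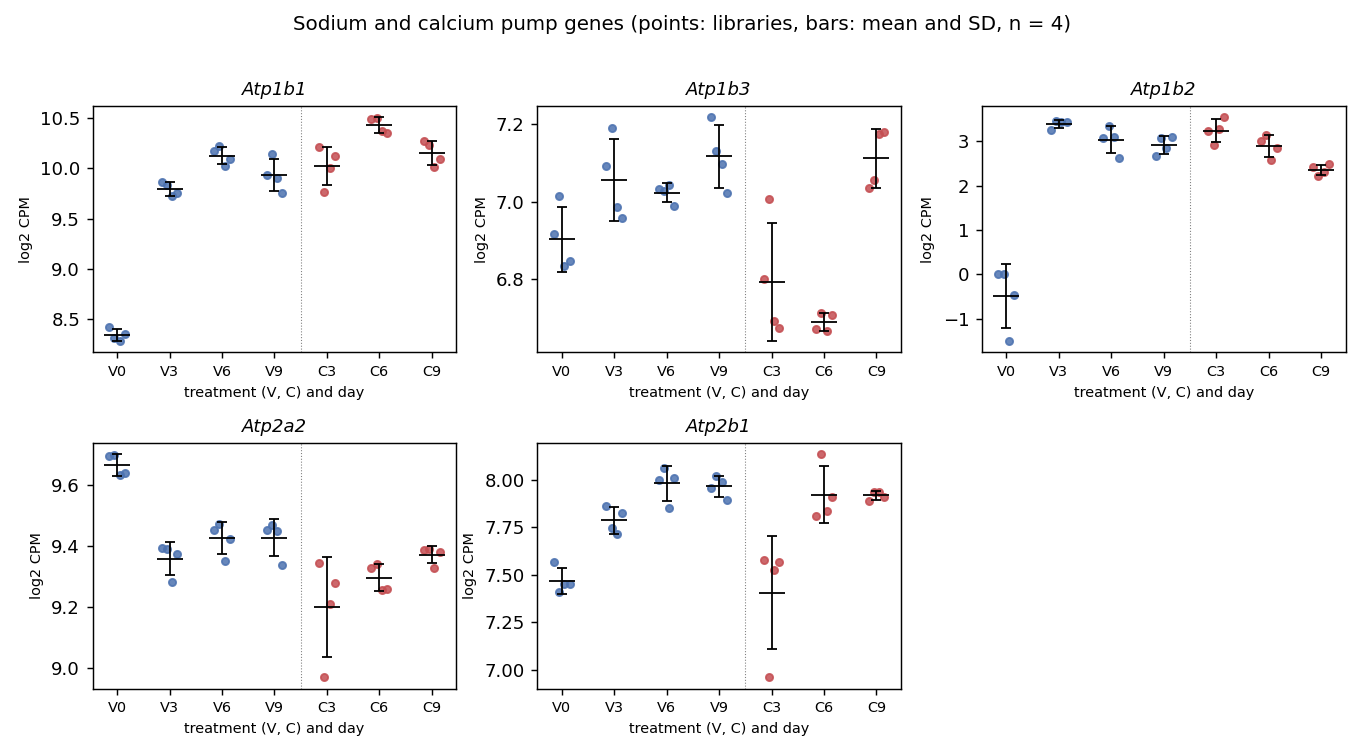
Log2 CPM of 3 sodium pump and 2 calcium pump genes in each library (points), with the mean and SD of 4 libraries (bars), by group (V vehicle, C corticosterone, number is the day). The axes differ between panels. Atp1b3 lies at 6.67 to 6.71 in C6, below the 6.99 to 7.04 of V6, and Atp1b1 and Atp1b2 differ most between day 0 and the later vehicle days.

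The calcium pumps return calcium to the endoplasmic reticulum (Atp2a), across the plasma membrane (Atp2b) or into the Golgi (Atp2c). At day 3, 1 of the 6 rose and 2 fell, against 23.3% higher and 25.6% lower of all genes. Atp2a3 rose by 0.82 ± 0.16 (adjusted p = 1.51e-04), from 2.09 to 2.55 in vehicle to 2.84 to 3.4, with no overlap. Atp2b1 fell by 0.38 ± 0.09 (adjusted p = 0.00126). Its treated libraries stood at 6.96, 7.52, 7.57 and 7.57, the lowest of them replicate 4, below the 7.71 to 7.86 of vehicle. Atp2a2, the abundant reticulum pump, fell by 0.16 ± 0.05 (adjusted p = 0.0177), a call that is lost without replicate 4. At day 6 none of the 6 was called by limma, against 47.2% of all genes. Limma's unadjusted p was under 0.05 for 1 of them, Atp2a2, which was called with the replicate block (adjusted p = 0.0172). At day 9 only Atp2c1 was called, by -0.41 ± 0.11 (adjusted p = 0.00653).

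Among the 6 sodium channel genes, Scnn1a encodes the alpha subunit of the epithelial sodium channel, the pore through which epithelia take up sodium. It stood at 1.00, 1.32, 1.43 and 1.63 in vehicle at day 3 and at 3.32, 3.53, 3.55 and 3.57 with corticosterone. The groups lay far apart, and the rise was 2.15 ± 0.13 (adjusted p = 3.65e-13), or 4.44-fold. It was 1.53 ± 0.13 at day 6 (adjusted p = 2.09e-10), smaller than at day 3 by 0.62 ± 0.18 (adjusted p = 0.0324), a difference between days that was not called when only the groups compared were fitted. At day 9 treated libraries stood at 1.58 to 1.67 and vehicle libraries at 1.45 to 1.65. Scnn1b and Scnn1g, the genes of the partner subunits, were not among the 13128 named genes.

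The other sodium channel genes belong to the voltage-gated family known from nerve and muscle. Scn3a stood at 2.83, 3.20, 3.39 and 3.42 in vehicle at day 3 and at 4.07, 4.88, 4.88 and 4.94 with corticosterone. The lowest treated library was replicate 4, and it too lay above all vehicle libraries. The rise of Scn3a was 1.48 ± 0.19 at day 3 (adjusted p = 3.16e-07) and 0.56 ± 0.19 at day 6 (adjusted p = 0.0162), where the replicate number as a block gave 0.46 and no call (adjusted p = 0.0596). The neighbours Scn3a and Scn2a lie 53.1 kb apart on chromosome 2, and Scn2a, named after its values were seen, was called at day 9 alone, at 1.00 ± 0.34 (adjusted p = 0.0272). Scn2a lay at -0.57 to 0.61 at day 0, at -1.44 to -1.17 in vehicle at day 9 and at -0.84 to 0.26 with corticosterone at day 9.

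The 25 potassium channel genes held the largest rise with corticosterone at day 3, that of Kcnj15. At day 3, 12 of them rose and 7 fell, with a median of 0.33, against 23.3% higher and 25.6% lower of all genes. At day 9, 7 rose and 3 fell, against 14.1% higher and 14.4% lower of all genes. The inward rectifiers hold the resting voltage. Kcnj15, which encodes the Kir4.2 channel of kidney tubule cells, lay at -3.56, -3.47, -3.25 and -3.24 in vehicle at day 3 and at 3.02, 3.55, 3.76 and 3.77 with corticosterone. All vehicle libraries of the 4 days lay from -4.15 to -3.08, and all 8 treated libraries of days 3 and 6 lay from 2.55 to 3.77. The rise was 6.91 ± 0.39 (adjusted p = 8.42e-14), and 6.18 ± 0.39 at day 6 (adjusted p = 5.68e-13). On the scale of log2(CPM + 1), which damps differences of low values, it was 3.51 at day 3 and 2.98 at day 6.

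At day 9 Kcnj15 was still higher, at -1.31, -1.06, -0.80 and 1.37 against -3.58 to -3.10 in vehicle. The library at 1.37 was corticosterone replicate 3. The difference was 2.91 ± 0.39 (adjusted p = 2.20e-06), 2.30 without that library, and 0.75 as log2(CPM + 1), and it was called in each of these. From day 3 to day 9 the effect changed by -4.0 ± 0.54 (adjusted p = 1.74e-06).

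The other inward rectifiers did not rise at day 3. Kcnj16, the Kir5.1 subunit that joins Kir4 subunits, fell from 5.46, 5.55, 5.57 and 5.63 to 4.53, 4.57, 4.66 and 4.70, by 0.94 ± 0.07 (adjusted p = 5.55e-11) with no overlap. At day 6 the fall was 0.19 ± 0.07 (adjusted p = 0.0334), a call lost with the replicate block (adjusted p = 0.0599), with median centring and without each of 5 single libraries. At day 9 it was higher than in vehicle by 0.23 ± 0.07 (adjusted p = 0.0179). Kcnj14 fell by 1.62 ± 0.30 at day 3 (adjusted p = 6.20e-05) from levels at or below 0.04, and by 0.53 as log2(CPM + 1). Kcnj4, named after its values were seen, fell by 1.42 ± 0.26 (adjusted p = 6.29e-05) with all libraries of both groups at or below 0.70. Kcnj2, which lies 38.2 kb from Kcnj16 on chromosome 11, was not called at any day after corticosterone.

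Two-pore potassium channels carry leak currents. At day 3, 4 of the 6 rose and 1 fell, against 23.3% higher and 25.6% lower of all genes. Kcnk1, the TWIK1 channel, stood at -3.15, -2.72, -2.07 and -1.13 in vehicle and at 0.52, 0.65, 0.89 and 1.31 with corticosterone. It was as high at day 9, where treated libraries lay at 0.17, 0.65, 0.87 and 1.08 and vehicle libraries from -3.0 to -1.75. Its differences were 3.11 ± 0.41 (adjusted p = 5.59e-07), 3.21 ± 0.41 (adjusted p = 3.09e-07) and 3.15 ± 0.41 (adjusted p = 1.79e-06) at days 3, 6 and 9. As log2(CPM + 1) they were 1.19, 1.34 and 1.15. The effect at day 9 minus that at day 3 was 0.04 (95% interval -1.17 to 1.25), and it was not called. All of these levels are low, since 1 CPM is 0 on this scale.

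Kcnk5, the acid-sensitive TASK2 channel of kidney tubules, rose at all 3 days, by 0.79 ± 0.09 (adjusted p = 1.82e-08), 0.91 ± 0.09 (adjusted p = 1.36e-09) and 0.37 ± 0.09 (adjusted p = 0.00193). At day 3 vehicle libraries lay at 4.49 to 4.64 and treated libraries at 5.28 to 5.41, close to the 5.33 to 5.59 of day 0. Kcnk3, the TASK1 channel, rose by 0.66 ± 0.13 at day 3 (adjusted p = 1.47e-04) and 1.13 ± 0.13 at day 6 (adjusted p = 5.70e-08). Kcnk2, the stretch-sensitive TREK1 channel, fell at all 3 days. Its fall was 1.79 ± 0.24 at day 6 (adjusted p = 8.43e-07), from 0.06, 0.27, 0.44 and 0.55 to -1.84, -1.69, -1.43 and -0.87, and 0.90 ± 0.24 at day 9 (adjusted p = 0.00663). At day 3 the groups of Kcnk2 overlapped, and the call was lost without corticosterone replicate 4 and on the log2(CPM + 1) scale (-0.19). Kcnk10 fell at day 6 alone, by 0.75 ± 0.14 (adjusted p = 4.54e-05).

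**Figure D3:**
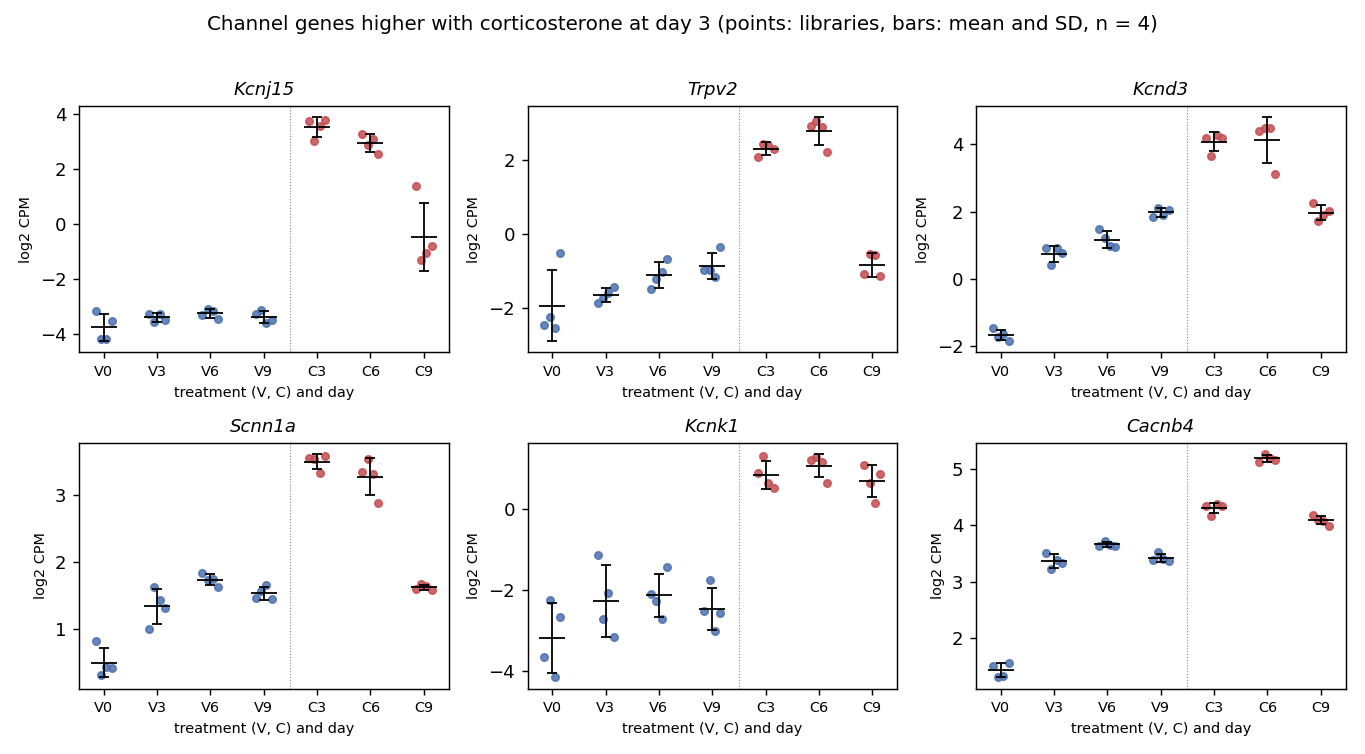
Log2 CPM of 6 channel genes that rose with corticosterone at day 3, in each library (points) with the mean and SD of 4 libraries (bars), by group (V vehicle, C corticosterone, number is the day). The axes differ between panels. Trpv2, Kcnd3 and Scnn1a lie at vehicle levels in C9, Kcnk1 stays at 0.17 to 1.08 there, and 1 library of Kcnj15 in C9, at 1.37, lies above the other 3.

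Both genes for small-conductance potassium channels, which open with calcium, rose at days 3 and 6, when 23.3% and 22.9% of all genes were higher. Kcnn1 rose by 0.68 ± 0.14 at day 3 (adjusted p = 1.78e-04) and 0.93 ± 0.14 at day 6 (adjusted p = 2.52e-06). Kcnn2, named after its values were seen, stood at -2.71 to -1.42 in vehicle and at 0.89, 1.08, 1.12 and 1.13 with corticosterone at day 3, a rise of 3.13 ± 0.28 (adjusted p = 7.86e-10), or 1.30 as log2(CPM + 1). At day 9 its difference of 0.39 was not called.

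Voltage-gated potassium channels repolarize the membrane. At day 3, 4 of the 8 rose and 2 fell, against 23.3% higher and 25.6% lower of all genes. Kcnd3, the Kv4.3 channel of heart and brain, stood at 0.41, 0.77, 0.91 and 0.91 in vehicle and at 3.66, 4.19, 4.20 and 4.26 with corticosterone. The rise was 3.33 ± 0.22 (adjusted p = 2.06e-12). At day 6 treated libraries lay at 3.11, 4.39, 4.49 and 4.50, with replicate 6 below the rest, and the rise was 2.96 ± 0.22 (adjusted p = 1.65e-11). At day 9 both groups covered the same range, 1.84 to 2.11 in vehicle and 1.73 to 2.25 in treated libraries, with a difference of -0.01. Vehicle itself had climbed by 3.64 ± 0.22 from day 0 to day 9 (adjusted p = 8.23e-14).

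Kcnip1, a calcium-sensing auxiliary subunit of Kv4 channels, rose beside Kcnd3, by 1.53 ± 0.15 at day 3 (adjusted p = 2.49e-09), from -0.15, -0.14, -0.02 and 0.24 to 1.48, 1.49, 1.53 and 1.57. Its rise was 0.80 ± 0.15 at day 6 (adjusted p = 6.66e-05) and 0.45 ± 0.15 at day 9 (adjusted p = 0.0241). All treated libraries stayed below the 3.29 to 3.42 of day 0. Kcnab3, another auxiliary subunit, fell at all 3 days, most at day 6, by 1.16 ± 0.08 (adjusted p = 3.86e-12) from 5.19 to 5.47 down to 3.93 to 4.39.

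The ether-a-go-go channels split by gene. Kcnh2, the hERG channel known for the cardiac action potential, stood at 4.12, 4.23, 4.25 and 4.37 in vehicle at day 3 and at 2.68, 2.75, 3.12 and 3.13 with corticosterone. All treated libraries lay below all vehicle libraries, and Kcnh2 fell by 1.33 ± 0.16 (adjusted p = 1.55e-07), or 2.51-fold. At day 6 it fell by 1.51 ± 0.16 (adjusted p = 1.54e-08), and at day 9 the difference of -0.41 ± 0.16 was not called (adjusted p = 0.0576). Kcnh1, named after its values were seen, rose by 2.11 ± 0.30 at day 3 (adjusted p = 1.33e-06) and 2.30 ± 0.30 at day 6 (adjusted p = 3.26e-07), with a highest treated value of 1.24. On the log2(CPM + 1) scale these rises were 0.89 and 1.05. Kcnh7 rose at all 3 days by 0.32, 0.57 and 0.36, and Kcnh3 fell by 0.46 at day 3 and 0.76 at day 6. The call of Kcnh3 at day 3 was lost with the replicate block and without each of 6 single libraries.

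Of the 11 chloride channel and exchanger genes, 4 rose and 2 fell at day 3, against 23.3% higher and 25.6% lower of all genes. Clcn2, a plasma membrane channel, rose by 0.25 ± 0.07 at day 3 (adjusted p = 0.00401) and fell by 0.27 ± 0.07 at day 6 (adjusted p = 0.0022), with no overlap at either day. Tested as a difference, the effect on Clcn2 changed by -0.51 ± 0.10 (adjusted p = 8.19e-04).

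The exchangers of endosomes and lysosomes, which swap chloride for protons, followed other courses. Clcn5, known from protein uptake in the proximal tubule, stood at 6.85, 6.93, 6.99 and 7.12 in vehicle at day 3 and at 5.50, 6.26, 6.28 and 6.37 with corticosterone, the lowest being replicate 4. It fell by 0.87 ± 0.11 (adjusted p = 4.37e-07), showed no call at day 6 (-0.11) and was higher than vehicle at day 9 by 0.41 ± 0.11 (adjusted p = 0.00819). The effect on Clcn5 changed by 1.27 ± 0.16 from day 3 to day 9 (adjusted p = 5.07e-07). Clcn3 rose by 0.22 ± 0.05 at day 3 (adjusted p = 0.0013) and 0.32 ± 0.05 at day 6 (adjusted p = 1.25e-05), then was lower by 0.15 ± 0.05 at day 9 (adjusted p = 0.0334). The day 3 call was lost when only the groups compared were fitted, and the day 9 call with median centring and without each of 6 single libraries. Clcn7, the lysosomal exchanger, was called at day 9 alone, at -0.16 ± 0.04 (adjusted p = 0.00305).

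Chloride intracellular channel proteins are small proteins of debated channel function. Clic4 stood at 8.08, 8.10, 8.14 and 8.15 in vehicle at day 3 and at 8.32, 8.41, 8.46 and 8.47 with corticosterone, a rise of 0.30 ± 0.05 (adjusted p = 1.61e-05) that was 0.42 ± 0.05 at day 6 (adjusted p = 1.06e-07) and 0.04 at day 9. Clic5 fell by 0.30 ± 0.07 at day 3 (adjusted p = 0.00135). Clic1 differed by -0.13 at day 3 and -0.19 at day 6 without a call.

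None of the 5 anoctamins was called at day 3, against 49.0% of all genes. Limma's unadjusted p was under 0.05 for 1 of them, Ano1, which was called without corticosterone replicate 4. Ano1, the calcium-activated chloride channel of secretory epithelia, stood at 5.07, 5.13, 5.25 and 5.38 in vehicle and at 5.18, 5.37, 5.58 and 5.69 with corticosterone, groups that overlapped. At day 6 it rose by 0.45 ± 0.12 (adjusted p = 0.00249), from 4.90 to 5.27 up to 5.41 to 5.67. Ano6, a scramblase that moves membrane lipids, rose at day 6 by 0.28 ± 0.07 (adjusted p = 0.00127), and the rise at day 9 was 0.22 ± 0.07 (adjusted p = 0.0158).

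Voltage-gated calcium channels are built of a pore subunit with auxiliary subunits. At day 3, 3 of the 10 genes rose and 2 fell, against 23.3% higher and 25.6% lower of all genes. Cacnb4, an auxiliary beta subunit, stood at 3.22, 3.34, 3.39 and 3.51 in vehicle at day 3 and at 4.17, 4.34, 4.34 and 4.37 with corticosterone. It rose by 0.94 ± 0.07 (adjusted p = 1.52e-11) and more at day 6, by 1.53 ± 0.07 (adjusted p = 1.42e-15), from 3.63 to 3.73 up to 5.12 to 5.27. The test of that increase gave 0.59 ± 0.10 (adjusted p = 1.86e-04). At day 9 Cacnb4 was still higher by 0.67 ± 0.07 (adjusted p = 4.21e-08), with no overlap at any day. Cacnb3, another beta subunit, was called at day 9 alone, lower by 0.33 ± 0.06 (adjusted p = 2.23e-04), and Cacnb1 fell at day 6 by 0.34 ± 0.09 (adjusted p = 0.00258) and at day 9 by 0.72 ± 0.09 (adjusted p = 7.03e-07).

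The pore subunits differed by gene. Cacna1d, an L-type channel, stood at -1.28, -0.39, -0.35 and -0.31 in vehicle at day 3 and at 0.44, 0.44, 0.67 and 1.05 with corticosterone. It rose by 1.23 ± 0.27 at day 3 (adjusted p = 4.25e-04) and 1.31 ± 0.27 at day 6 (adjusted p = 2.17e-04), both at low levels, and by 0.62 and 0.72 as log2(CPM + 1). Cacna1a, the P/Q-type channel, rose by 0.46 ± 0.09 at day 3 (adjusted p = 1.21e-04), by 0.27 ± 0.09 at day 6 (adjusted p = 0.0151), and was lower by 0.44 ± 0.09 at day 9 (adjusted p = 4.84e-04). The effect on Cacna1a changed by -0.89 ± 0.13 from day 3 to day 9 (adjusted p = 2.71e-06). Of the T-type channels, Cacna1i fell from -0.44, -0.09, 0.19 and 1.09 to -2.25, -2.07, -1.85 and -1.55 at day 3, by 2.11 ± 0.32 (adjusted p = 4.91e-06), or 0.78 as log2(CPM + 1). Cacna1g differed by -0.46 ± 0.17 (adjusted p = 0.0284), a call lost when only the groups compared were fitted and without vehicle replicate 4 or 6 or corticosterone replicate 4 or 5. Cacna2d1, an alpha-2-delta subunit, rose by 0.57 ± 0.06 at day 6 (adjusted p = 1.05e-08) and 0.44 ± 0.06 at day 9 (adjusted p = 4.01e-06). Cacng7 rose by 0.42 ± 0.08 (adjusted p = 1.58e-04) and 0.64 ± 0.08 (adjusted p = 1.93e-06) at the same days. Cacna1c was not among the 13128 named genes.

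TRP channels are cation channels that sense heat, stretch, lipids or ions. Of the 12 genes of this class, 2 rose and 3 fell at day 3, against 23.3% higher and 25.6% lower of all genes. Trpv2 stood at -1.87, -1.73, -1.59 and -1.43 in vehicle and at 2.09, 2.31, 2.43 and 2.45 with corticosterone, a rise of 3.97 ± 0.32 (adjusted p = 8.31e-11), or 2.18 as log2(CPM + 1). At day 6 it was as high, at 2.22, 2.91, 2.95 and 3.06 against -1.49 to -0.66. At day 9 treated libraries lay at -1.15 to -0.54 and vehicle libraries at -1.15 to -0.35, a difference of 0.02. The change in the effect from day 3 to day 9 was -3.95 ± 0.45 (adjusted p = 1.14e-07).

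Trpm6, a magnesium channel of kidney and gut, stood at 3.84, 3.88, 3.90 and 3.99 in vehicle at day 3 and at 2.92, 2.95, 2.96 and 3.01 with corticosterone. It fell by 0.94 ± 0.08 (adjusted p = 2.63e-10). At day 6 the fall was 0.77 ± 0.08 (adjusted p = 9.65e-09), and at day 9 it was 0.27 ± 0.08 (adjusted p = 0.0142), a call lost without corticosterone replicate 3. Its relative Trpm7, found in nearly all cells, was not called at any day after corticosterone and lay between 7.49 and 7.89 in all 28 libraries. Pkd2, the polycystin-2 channel of cilia, fell by 0.29 ± 0.07 at day 3 (adjusted p = 5.53e-04) and 0.24 ± 0.07 at day 6 (adjusted p = 0.00353). Trpm4, opened by calcium, fell at days 6 and 9 by 0.32 ± 0.08 each (adjusted p = 0.00148 and 0.0031). Trpv4, a channel for stretch and osmotic change, was called at day 9 alone at 0.17 ± 0.06 (adjusted p = 0.0238), with overlapping groups, lost without each of 4 single libraries and when only the groups compared were fitted. Trpm2 fell by 0.63 ± 0.25 at day 3 (adjusted p = 0.036), a call lost with the replicate block, on the log2(CPM + 1) scale, when only the groups compared were fitted and without each of 5 single libraries. Trpc2 lay between -4.15 and 0.82 within groups and was not called, and Trpv6 was not among the 13128 named genes.

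Over the 3 days after hormone, 8 members were higher at every day (Atp1b1, Cacnb4, Kcnh7, Kcnip1, Kcnj15, Kcnk1, Kcnk5 and Kcnn1) and 3 were lower at every day (Kcnab3, Kcnk2 and Trpm6), 10.1% and 3.80%, against 5.41% and 5.38% of all genes. The day 9 call of Atp1b1 (0.22, adjusted p = 0.0436) was lost under median centring (adjusted p = 0.0522), when only the groups compared were fitted (0.0694), and without vehicle replicate 3, 5 or 6 or corticosterone replicate 3, 4 or 6 (0.0512 to 0.169). Single libraries also decided the day 9 calls of Kcnip1 (lost without vehicle or corticosterone replicate 3 or 4) and Kcnn1 (vehicle replicate 3, corticosterone replicate 3 or 6), and the day 3 call of Kcnk2 (replicate 4 of either group). Another 13 were higher at days 3 and 6 and not called at day 9, among them Scnn1a, Kcnd3, Trpv2, Clic4, Scn3a and Kcnk3, and 7 were lower at days 3 and 6 and not called at day 9, among them Kcnh2, Pkd2 and Atp1b3. These were 16.5% and 8.86% of members, against 9.51% and 10.7% of all genes. Direction turned for 5 members (6.33%, against 6.56% of all genes): Cacna1a and Clcn3 were higher and then lower, Kcnj16 and Clcn5 lower and then higher, and Clcn2 was higher at day 3 and lower at day 6. A missing call at day 9 does not by itself show a smaller effect. The direct test of the effect at day 9 minus that at day 3 called 39 members, 14 higher and 25 lower, against 38.3% of all genes, 19.8% higher and 18.5% lower. The same test between day 6 and day 3 called 14 members, 5 higher and 9 lower, against 9.11% of all genes, 4.21% higher and 4.90% lower, and 8 members when only the groups compared were fitted.

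**Figure D4:**
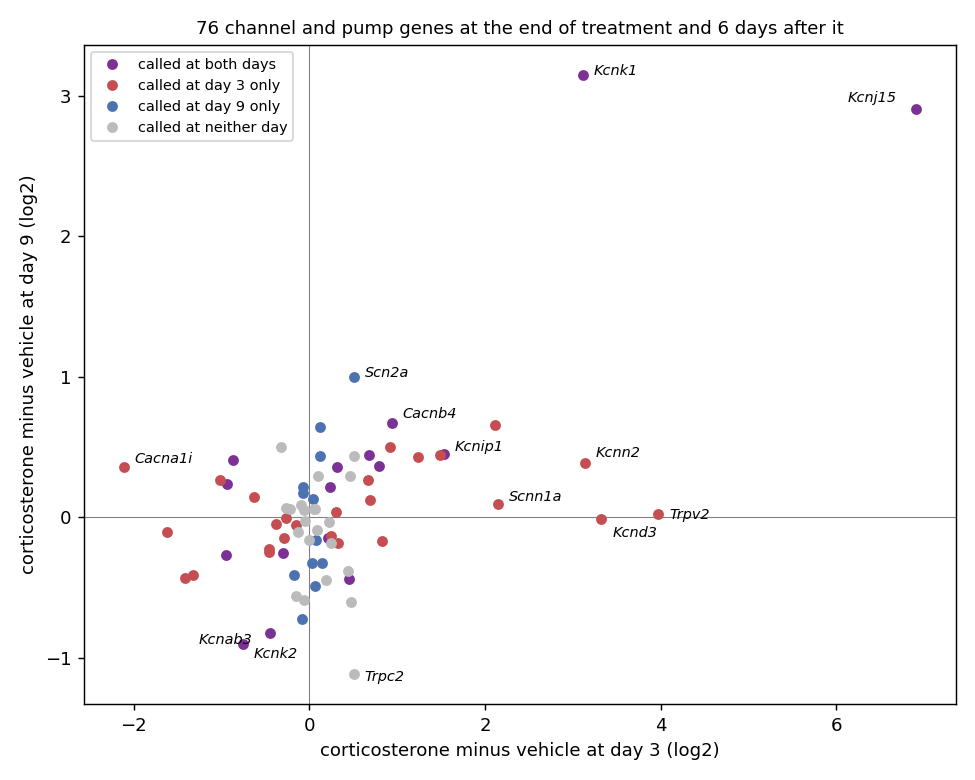
Difference between corticosterone and vehicle in log2 units at day 3 (x axis) and at day 9 (y axis) for 76 members (points), coloured by the days at which they were called. Kcnj15 and Kcnk1 stand above 2 on both axes. Trpv2, Kcnd3, Kcnn2 and Scnn1a lie between 2 and 4 on the x axis and near 0 on the y axis.

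Time in vehicle alone changed more members than the hormone. From day 0 to day 3, 48 rose and 15 fell, 63 of 79 (79.7%), against 69.2% of all genes, 36.5% higher and 32.7% lower. The counts were 49 and 15 at day 6, against 70.1% of all genes, 36.4% higher and 33.7% lower. At day 9 they were 48 and 15, against 70.4%, 35.9% higher and 34.6% lower. The median difference of the members was 0.44, 0.62 and 0.56 at days 3, 6 and 9, and that of all genes 0.04, 0.03 and 0.02. With quantile normalization the member medians were 0.40, 0.39 and 0.36. At all 3 days 40 members were higher (50.6%), 13 were lower (16.5%) and 7 were never called (8.86%), against 27.9%, 26.9% and 16.6% of all genes, while Kcnk2 fell at days 3 and 6 and was higher at day 9. All comparisons with day 0 share the same 4 libraries. Markers of other cell types moved over the same days. Leukocyte markers (2 of 6 measured) summed to 9.59 to 10.7 CPM at day 0 and 87.6 to 108 CPM in vehicle at day 9, with Cd68 higher by 3.73 ± 0.10 (adjusted p = 5.48e-21) and Csf1r lower by 2.35 ± 0.29 (adjusted p = 6.29e-08). Fibroblast markers (4 of 7 measured, 3 higher and 1 lower) summed to 9.69 to 10.4 and 34.8 to 38.6 CPM, with Dcn higher by 4.08 ± 0.10 (adjusted p = 5.26e-22). The epithelial markers (7 of 10 measured, 1 higher and 2 lower) summed to 72.5 to 75.7 and 66.5 to 72.8 CPM, with Krt19 lower by 2.14 ± 0.29 (adjusted p = 4.33e-07). The part of these markers in the vehicle course was not tested.

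Most sodium pump and sodium channel genes rose with time. Atp1b1 went from 8.28, 8.31, 8.35 and 8.42 at day 0 to 9.72 to 9.86 at day 3, by 1.45 ± 0.08 (adjusted p = 1.42e-14), or 2.73-fold, with no overlap. Atp1b2 rose by 3.89 ± 0.22 (adjusted p = 2.77e-14), from -1.51, -0.46, -0.01 and 0.01 to 3.25 to 3.46. Atp1b3 rose by 0.15 at day 3. The Atp1b3 call was lost without each of 4 single libraries. Scn3a rose by 4.36 ± 0.19 at day 3 (adjusted p = 1.02e-16) and 4.95 at day 9. Scnn1a rose by 0.84, 1.23 and 1.03 at the 3 days. Of the 6 sodium channel genes 5 rose at day 3, against 36.5% of all genes, or 4 with 1 fall under quantile normalization. At day 9, 4 were higher and 1 was lower, Scn2a at -1.15, against 35.9% higher and 34.6% lower of all genes.

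Among the 25 potassium channel genes, 12 rose and 5 fell at day 3, against 36.5% higher and 32.7% lower of all genes. Under quantile normalization the voltage-gated genes moved from 5 higher and 0 lower to 5 and 2. The inward rectifiers moved from 3 and 1 to 2 and 1, and the small-conductance genes from 1 and 0 to 0 and 1. The two-pore and auxiliary counts did not change. Kcnj16 went from 3.47 to 3.90 at day 0 to 5.46 to 5.63 at day 3 and 6.13 to 6.26 at day 6, with differences of 1.86 ± 0.07 (adjusted p = 1.52e-17) and 2.51 ± 0.07 (adjusted p = 6.06e-20). Kcnh2 rose by 2.32 ± 0.16 at day 3 (adjusted p = 1.51e-12), Kcnd3 by 2.42 ± 0.22 (adjusted p = 2.66e-10) and Kcnd1 by 1.97 ± 0.13 (adjusted p = 6.23e-13). Kcnip1 had the largest fall of all members, from 3.29, 3.37, 3.38 and 3.42 at day 0 to values from -0.15 to 0.24 at day 3, by 3.38 ± 0.15 (adjusted p = 1.21e-16), and lay between -0.47 and 0.26 at days 6 and 9. Kcnk5 fell by 0.86 ± 0.09 at day 3 (adjusted p = 1.45e-09) and lay only 0.20 below day 0 at day 9.

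Other classes moved in both directions. Clic5, a protein of the apical cytoskeleton, rose by 2.64 ± 0.07 (adjusted p = 2.11e-20) from 2.38 to 2.87 at day 0 to 5.21 to 5.26 at day 3, while Clic1 and Clic4 fell by 0.50 and 0.42. Clcn5 fell by 0.49, 0.84 and 1.05 at the 3 days. All 5 anoctamins rose at day 3, against 36.5% of all genes, and 2 were higher at day 9, against 35.9%. The largest rise at day 3 was that of Ano3 at 1.43, a gene named after its values were seen. Cacnb4 rose by 1.94 ± 0.07 (adjusted p = 1.82e-18) and Trpm6 by 1.29 ± 0.08 (adjusted p = 1.46e-13), and Cacng7 fell by 0.46, 0.77 and 1.14. Atp2a2 fell by 0.31 at day 3, a sign that turned to 0.07 with quantile normalization.

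Of the 48 members that rose in vehicle by day 3, 18 were higher (37.5%) and 12 lower (25%) with corticosterone at that day. Of all 4789 genes that rose in vehicle the shares were 32.2% and 23.7%, near those of the members. Kcnh2, Trpm6 and Kcnj16 belonged to the 12, and with the hormone each lay between its day 0 and its vehicle level at day 3, in every library for these 3 genes. Kcnd3, Scn3a, Scnn1a and Cacnb4 were among the 18. These comparisons share the vehicle libraries of day 3, so that a low or high vehicle value moves both differences in opposite directions.

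**Figure D5:**
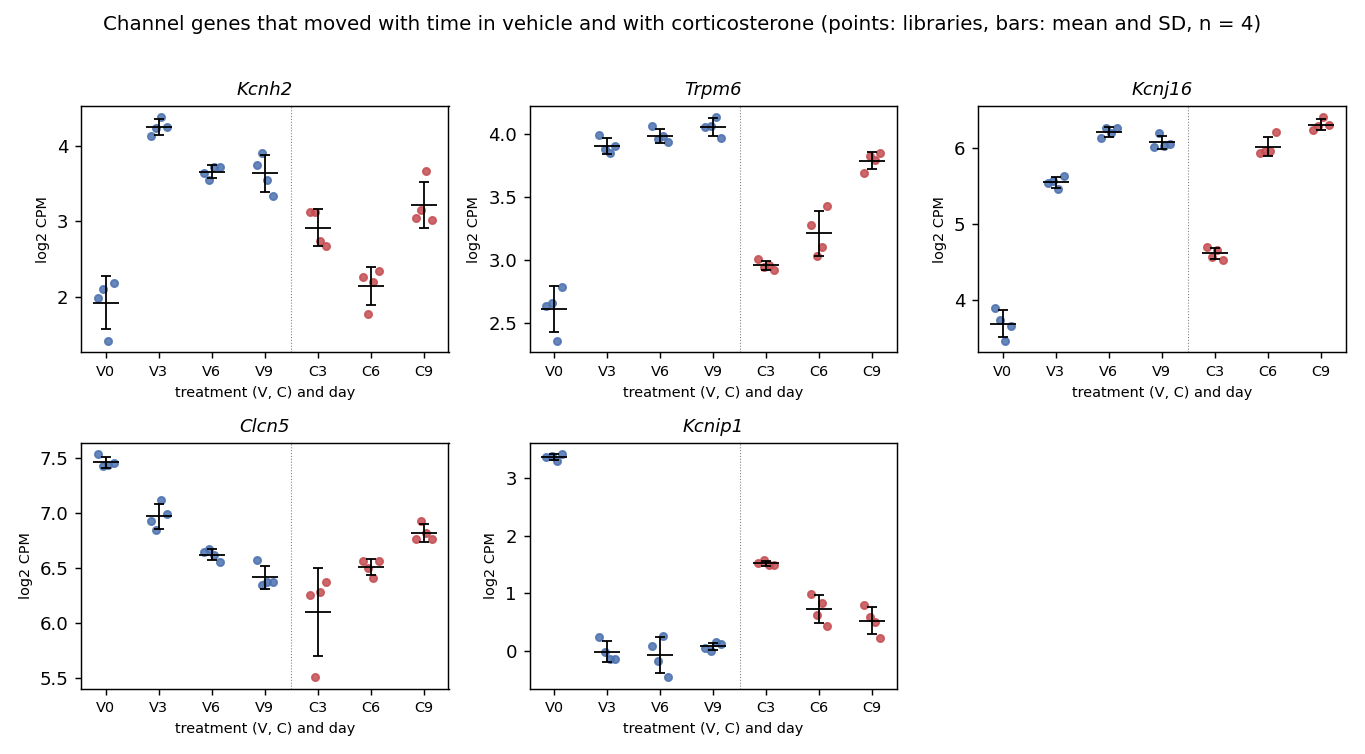
Log2 CPM of 5 channel genes that moved with time in vehicle and with corticosterone, in each library (points) with the mean and SD of 4 libraries (bars), by group (V vehicle, C corticosterone, number is the day). The axes differ between panels. Kcnh2, Trpm6 and Kcnj16 in C3 lie between V0 and V3, Clcn5 falls from V0 to V9 and at day 3 is lower with corticosterone than in vehicle, and Kcnip1 is far lower in all later groups than in V0.

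Other ion transport genes were read from lists drawn up with earlier results of these data known. Of 13 measured regulators of the sodium pump and the epithelial sodium channel, 2 rose and 4 fell at day 3, with a median of -0.03. Over all genes tested 23.3% were higher and 25.6% lower at that day. Sgk1, the kinase that raises sodium channel activity, rose by 6.13 ± 0.28 at day 3 (adjusted p = 2.03e-15) and 4.94 ± 0.28 at day 6 (adjusted p = 1.07e-13), from group means of 3.25 and 3.79 in vehicle, and was lower by 0.77 ± 0.28 at day 9 (adjusted p = 0.0435). Usp2, a deubiquitinase that acts on the sodium channel, rose by 2.01 and 1.90 at days 3 and 6. Fxyd5, a small partner of the sodium pump, fell by 1.93, 2.22 and 1.37 at days 3, 6 and 9.

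Of 26 cotransporters and exchangers, 6 rose and 8 fell at day 3 (median 0.04). Slc4a4, a sodium bicarbonate cotransporter, rose by 1.00 and 0.95 at days 3 and 6. At day 9 it was called lower, at -0.48 ± 0.13 (adjusted p = 0.00746). The sodium proton exchanger gene Slc9a5 fell by 0.87 and 1.37 at days 3 and 6 and was still lower at day 9, at -0.67. Of 34 other channels and pumps, 6 rose and 15 fell at day 3, with a median of -0.16. Beside the counts of both lists stand 23.3% higher and 25.6% lower of all genes. Stim1, the calcium sensor of the reticulum, rose by 0.85 and 0.94 at days 3 and 6, and the calcium release channel gene Itpr3 fell by 0.67 and 0.90. Their relatives went the other way. Stim2 fell by 0.43 and 0.18 and Itpr1 rose by 0.84 and 0.75 at the same days, and Itpr2 rose by 0.41 at day 3 and was not called at day 6. Cftr, the chloride and bicarbonate channel of the epididymis, had fallen in vehicle from a mean of 5.51 at day 0 to 1.72 at day 9, and was higher after corticosterone by 0.55 at day 6 and 1.46 at day 9. Of 4 aquaporins, Aqp1 fell by 1.76 and Aqp5 by 3.61 at day 3, and Aqp11 rose by 0.70.

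The labelled cell type was read from marker lists. Of the epithelial markers 7 of 10 were measured, with mean log2 CPM at day 0 of 5.29 for Krt18, 4.57 for Cldn4 and 1.79 for Cdh1, while Epcam lay at -1.42. Of the principal cell markers of the epididymis 6 of 16 were measured, among them Pax8, Pax2 and Cftr. At day 3 of corticosterone 1 of the 7 measured epithelial markers rose and 2 fell, Cdh1 by 1.24 ± 0.13 (adjusted p = 5.57e-09). Of the principal cell markers 1 rose and 1 fell, and they summed to 272.5 to 289.4 CPM in vehicle and 229.0 to 306.6 CPM with corticosterone. Later days differed. Of the 7 epithelial markers 3 were higher and 2 lower at day 6, and 4 were higher and 1 lower at day 9. Of the 6 principal cell markers 3 were higher at day 6 and 4 at day 9, with 0 lower at either day. Fibroblast markers (4 of 7 measured, 2 higher and 2 lower) summed to 20.9 to 25.1 CPM in vehicle and 86.3 to 108 CPM with corticosterone at day 3, with Dcn higher by 2.76 ± 0.10 (adjusted p = 7.14e-18), and Kdr, 1 of 2 measured endothelial markers of 5 listed, rose by 5.32 ± 0.38 (adjusted p = 9.47e-12). Leukocyte markers (2 of 6), smooth muscle markers (2 of 5), neuronal markers (2 of 6), basal cell markers (1 of 5) and clear cell markers (1 of 8) were measured too. At day 3 with corticosterone, 2 leukocyte markers fell, 1 smooth muscle marker rose, 1 neuronal marker rose and 1 fell, and the basal and clear cell markers were not called. The part of these markers in the channel results was not tested.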

How the data were processed

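The mRNA of 28 DC2 samples was sequenced after stranded library preparation, per the labels' protocols. The authors deposited 1 table of log2 CPM, 1 column per library. The submitters' processing notes name kallisto, edgeR 3.40.1, limma 3.54.0 and mm10. The prior count, the filter and the normalization between libraries are not given in the sources used here. Of 13129 entries, 1 without a symbol (0.0267 to 0.0698% of CPM) was left out. Values back on the linear scale summed to 949631 to 1059930 CPM per library. Read depth is unknown, so counting error could not be given.

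Limma 3.58.1 in R 4.3.3 was fitted with 1 mean per group to all 28 libraries, with an intensity trend in the empirical Bayes step and 21 residual degrees of freedom. The filter, a log2 CPM over 0 in 4 or more libraries, removed 0 genes. Tests were two-sided. The same fit on simulated data for corticosterone at day 3 recovered 58% of 50 planted differences of 0.5 and 90% of 50 planted differences of 1 among 13128 genes. Few genes were changed in the simulation, whereas 49.0% were called in the data. The adjustment of p therefore differs, and these shares do not give the sensitivity of the reported calls. Alternatives were log2(CPM + 1), a filter at log2 CPM above 2, median centring, quantile normalization, only the groups compared, the replicate number as a block, and each library left out. No 2 libraries were alike (smallest root mean square difference 0.282).

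Members, lists and markers were chosen with earlier results of these data known. Named genes were a fixed set of pump and channel genes, the 10 largest called rises and falls with corticosterone at each day, and the 5 largest in each direction for the other comparisons, all at a mean log2 CPM of at least 0. Other members are marked as named after their values were seen, except Kcnj2, given as a neighbour of Kcnj16, and Trpc4ap, given for its symbol. Genes of the other ion transport lists were picked with their values seen, for a small p with corticosterone or as relatives of such genes. Results of 3 members are not reported here, and they stay in the counts but not in the figures. Deviations of same-numbered libraries from their group means correlated at 0.11 to 0.16 in all 3 shared numbers of day 6, so that the numbers were read as pairs there, from the data and not from the labels. Differently numbered libraries of day 6 correlated at -0.25 to 0.23, a range that holds these values, so that the correlations do not show pairing. At the other comparisons not all pairs were over 0.1. Gene lengths and positions came from GENCODE M21 (79 members matched), and promoter windows from RefSeq GRCm38.p6.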

Additional observations from a re-analysis of the deposited data

Results flagged for a closer look

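For 53 genes named by rule, 27 of 371 gene and group combinations had 1 library apart from the other 3 of its group by Dixon's criterion (its gap to the nearest over the range of the group), which chance gives in about 5% of groups. Values are log2 CPM. In vehicle at day 0 this was Ano6 at 8.12 in replicate 3 (others 8.05 to 8.06), Kcnd1 at 0.17 in replicate 3 (others 0.54 to 0.57), Scn3a at -1.76 in replicate 4 (others -0.99 to -0.87) and Trpv2 at -0.51 in replicate 6 (others -2.53 to -2.25). Among the libraries of vehicle at day 3 this was Atp1b2 at 3.25 in replicate 3 (others 3.43 to 3.46), Cacna1d at -1.28 in replicate 3 (others -0.39 to -0.31), Kcnab2 at 4.62 in replicate 3 (others 4.40 to 4.42), Kcnk3 at 4.57 in replicate 3 (others 4.21 to 4.23) and Trpm2 at 1.52 in replicate 6 (others 1.02 to 1.09). For vehicle at day 6 this was Cacnb4 at 3.73 in replicate 4 (others 3.63 to 3.64) and Kcnk4 at -0.23 in replicate 5 (others -0.38 to -0.37). Within vehicle at day 9 this was Atp2a2 at 9.34 in replicate 6 (others 9.45 to 9.47), Clcn5 at 6.57 in replicate 3 (others 6.35 to 6.37) and Kcnj16 at 6.20 in replicate 4 (others 6.02 to 6.05). Of the 27, 7 fell in replicate 4 of corticosterone at day 3. In corticosterone at day 3 this was Atp2b1 at 6.96 in replicate 4 (others 7.52 to 7.57), Cacnb4 at 4.17 in replicate 4 (others 4.34 to 4.37), Clcn5 at 5.50 in replicate 4 (others 6.26 to 6.37), Clic5 at 4.73 in replicate 4 (others 4.98 to 5.01), Kcnd3 at 3.66 in replicate 4 (others 4.19 to 4.26), Pkd2 at 8.21 in replicate 4 (others 8.65 to 8.69), Scn3a at 4.07 in replicate 4 (others 4.88 to 4.94) and Scnn1a at 3.32 in replicate 5 (others 3.53 to 3.57). With corticosterone at day 6 this was Atp2c1 at 6.22 in replicate 5 (others 5.77 to 5.79), Kcnab2 at 4.01 in replicate 5 (others 4.55 to 4.60), Kcnd3 at 3.11 in replicate 6 (others 4.39 to 4.50) and Kcnj16 at 6.21 in replicate 6 (others 5.94 to 5.96). Under corticosterone at day 9 this was Atp2a2 at 9.33 in replicate 5 (others 9.38 to 9.39). 

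The effect of corticosterone differed between days by the direct test for these genes, among the largest in each direction at a mean log2 CPM of at least 0. Larger changes from day 3 to day 9 in members below that mean included Kcnj15 (-4.0), Trpv2 (-3.95), Kcnn2 (-2.75) and Cacna1i (2.47). From day 3 to day 6 the log2 effect changed upward for Clcn5 (0.76), Kcnj16 (0.74), Cacnb4 (0.59), Cacna2d1 (0.45) and Ano6 (0.35) and downward for Scn3a (-0.92), Kcnip1 (-0.74), Kcnab3 (-0.72), Scnn1a (-0.62) and Kcnd1 (-0.62). From day 3 to day 9 it changed upward for Clcn5 (1.27), Kcnj16 (1.17), Kcnh2 (0.91), Trpm6 (0.68) and Cacng7 (0.52) and downward for Kcnd3 (-3.34), Scnn1a (-2.06), Kcnip1 (-1.09) and Scn3a (-1.04).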

How the results depend on the processing

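Calls that held under every alternative run were 35 of 44 members at day 3 of corticosterone, 39 of 44 at day 6, 18 of 29 at day 9, 55 of 63, 53 of 64 and 53 of 63 in vehicle at days 3, 6 and 9, 6 of 14 for the effect at day 6 minus day 3, and 29 of 39 for day 9 minus day 3. Held calls were counted for the members only, so that no share of all genes stands beside them. The count for day 6 minus day 3 moved most. When only the groups compared were fitted, 8 members were called in place of 14, 4 lower in place of 9, and 766 of all genes in place of 1196. With 1 library left out it was 8 to 13 members, and 918 to 1449 of all genes. The member count moved by over 1.5 times without vehicle day 3 replicate 3 or 6, vehicle day 6 replicate 3, or corticosterone day 6 replicate 5. The count of those lower was 3 to 8 and moved by over 1.5 times without each of these libraries and also without vehicle day 6 replicate 5, corticosterone day 3 replicate 1, or corticosterone day 6 replicate 1 or 6. The cause was not tested. Left-out libraries gave 41 to 43 members at day 3 of corticosterone, 40 to 45 at day 6 and 21 to 27 at day 9. Over all genes they gave 5915 to 6581, 5635 to 5991 and 3128 to 3426 at these days. In quantile normalization the difference from day 0 changed sign for Atp2a2 at day 3 (0.0703) and day 6 (0.0368), Kcnk1 at day 6 (-0.00673), Trpv2 at day 6 (-0.21) and Kcnn2 at days 6 and 9 (-0.71 and -0.88), and the cause was not tested.

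With the replicate block, 43, 42 and 29 members were called at days 3, 6 and 9 of corticosterone, 63, 64 and 62 in vehicle, and 12 and 37 for the differences between days. Over all genes, the alternatives other than left-out libraries called 4773 to 6452, 5672 to 6776 and 3507 to 4259 at the corticosterone days. The block is among these alternatives, as is the stricter filter, which tests fewer genes. At day 6 the numbers were read as pairs, although the correlations do not show pairing. There the block removed the calls of Kcnj16 (-0.19) and Scn3a (0.46) and added Atp2a2 (-0.16), among the members reported here. At day 3 the block removed Kcnh3 and Trpm2 and added Cacnb3. Without counts, the depth behind low values is unknown, and 19 members had a mean below 0.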
